A study of Mus musculus with 7 samples.

Results

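The neurexins, neurexophilins and cerebellins described here are 9 genes, *Nrxn2*, *Nrxn3*, *Nxph1*, *Nxph2*, *Nxph3*, *Nxph4*, *Cbln1*, *Cbln2* and *Cbln4*, among the 47729 genes of a forebrain RNA-seq table. They were chosen by name, and their gene symbols were matched to the table through the Ensembl gene identifier; other genes of these families were not analysed here. Forebrains were taken at postnatal day 15 from F1(C57BL/6 X 129Sv) mice carrying the *Lhx6* null allele Lhx6tm2Vpa. The control group was *Lhx6*+/- (4 samples) and the mutant group was *Lhx6*-/- (3 samples), so controls carried a null copy as well and no wild-type sample entered. Each sample pooled 2 animals, of the same sex or of both, and RNA integrity numbers ran from 9 to 10.

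Neurexins are adhesion molecules of the nerve terminal. Each neurexin gene makes a long alpha form and a short beta form from separate promoters, and further variants by splicing, and these forms bind partners across the synaptic cleft such as neuroligins and leucine-rich repeat proteins. Neurexophilins are small secreted glycoproteins, of which *Nxph1* is best known from inhibitory interneurons and binds alpha-neurexins. Cerebellins are secreted proteins of the C1q family that bind neurexins on the side of the terminal and delta glutamate receptors on the other side, and so bridge the cleft. *Lhx6* encodes a LIM-homeodomain transcription factor of interneurons born in the medial ganglionic eminence (MGE), the source of somatostatin and parvalbumin interneurons.

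The neurexophilins were the family with a called gene in each direction between genotypes, so the stretch of coding sequence where the 4 genes are most alike is shown, to let the reader see how far reads of 1 gene can be mistaken for those of another. The 90 bases lie in exon 2 of each coding transcript and are given 5′ to 3′ on the coding strand, with capitals at the 39 positions where the 4 genes are not all identical.
Nxph1: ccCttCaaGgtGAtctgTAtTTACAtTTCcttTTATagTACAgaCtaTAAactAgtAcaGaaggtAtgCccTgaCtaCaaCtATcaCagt
Nxph2: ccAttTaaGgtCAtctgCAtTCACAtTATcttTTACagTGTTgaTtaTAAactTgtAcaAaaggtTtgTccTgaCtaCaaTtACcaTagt
Nxph3: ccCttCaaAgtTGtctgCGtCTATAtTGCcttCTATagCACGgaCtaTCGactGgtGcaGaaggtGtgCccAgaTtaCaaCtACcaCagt
Nxph4: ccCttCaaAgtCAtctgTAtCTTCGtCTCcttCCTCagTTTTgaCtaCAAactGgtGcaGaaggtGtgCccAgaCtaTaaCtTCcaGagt
On GRCm38 these stretches are chr6:9247730-9247819 on the plus strand (*Nxph1*), chr2:23400307-23400396 on the plus strand (*Nxph2*), chr11:95510855-95510944 on the minus strand (*Nxph3*) and chr10:127526127-127526216 on the minus strand (*Nxph4*). Even here no run of more than 5 bases is shared by all 4 genes. Among the coded proteins, *Nxph1* and *Nxph2* were the most alike neurexophilins, with 63.9% identical residues, and *Nxph3* and *Nxph4* the least, with 49.6%. Within families, the longest identical run between the coding sequences of a pair was 24 bases (*Nxph3* and *Nxph4*), shorter than a read of 36 bases.

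The files hold expected counts per gene, estimated by the authors with RSEM, which shares reads that match several genes. Libraries summed to between 32556304 and 38069151 counts, and a normalized count here is the count after edgeR's TMM scaling to the mean library. *Lhx6* had 476 to 615 normalized counts in the control libraries and 70.1 to 76.6 in the mutant libraries, in the direction of the labels. *Slc17a7*, which marks excitatory neurons of the forebrain, had 67951 counts on average in controls. Of 10 markers of interneurons from the caudal ganglionic eminence, 4 were called higher, as was 1 of 7 astrocyte markers (*Gfap*, list median 0.12). Of 7 oligodendrocyte markers, 3 were called lower (list median -0.48). Among all tested genes 2.97% were called higher and 1.87% lower, with a median log2 fold change of -0.013. Columns are named by genotype and by number, with control libraries 2, 3, 10 and 11 and mutant libraries 5, 12 and 13, and values are listed in that order throughout. On the first principal component, which held 39.6% of the variance, libraries 2, 3 and 5 lay apart from libraries 10 to 13. Both runs of numbers hold both genotypes, and differences within each run are given beside the results. No pair of libraries of a genotype matched within sampling noise (chi-square per degree of freedom at least 9.36), so each counted as 1 replicate.

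All 9 genes passed the filter on low counts and were tested with the quasi-likelihood test of edgeR, and p-values were adjusted over all 19684 tested genes by the Benjamini-Hochberg method. *Nxph1* was called lower in mutants and *Nxph4* higher (adjusted p of 0.05 or below), that is 2 of 9 genes, where 4.85% of all tested genes were called (2.97% higher and 1.87% lower). Before adjustment, 5 of 9 had a p-value of 0.05 or less, against 18.2% of all tested genes. The mutant libraries lay wholly above the control libraries for *Nxph4*, *Cbln2* and *Cbln4* and wholly below them for *Nxph1* and *Nxph2*, so that genotypes did not overlap for 5 of 9 genes, against 19.7% of all tested genes. The median absolute log2 fold change was 0.48 over the 9 genes and 0.17 over all tested genes. With so few genes, chosen with earlier results of these data known, these shares describe the 9 genes and are not a test of them.

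**Figure D1:**
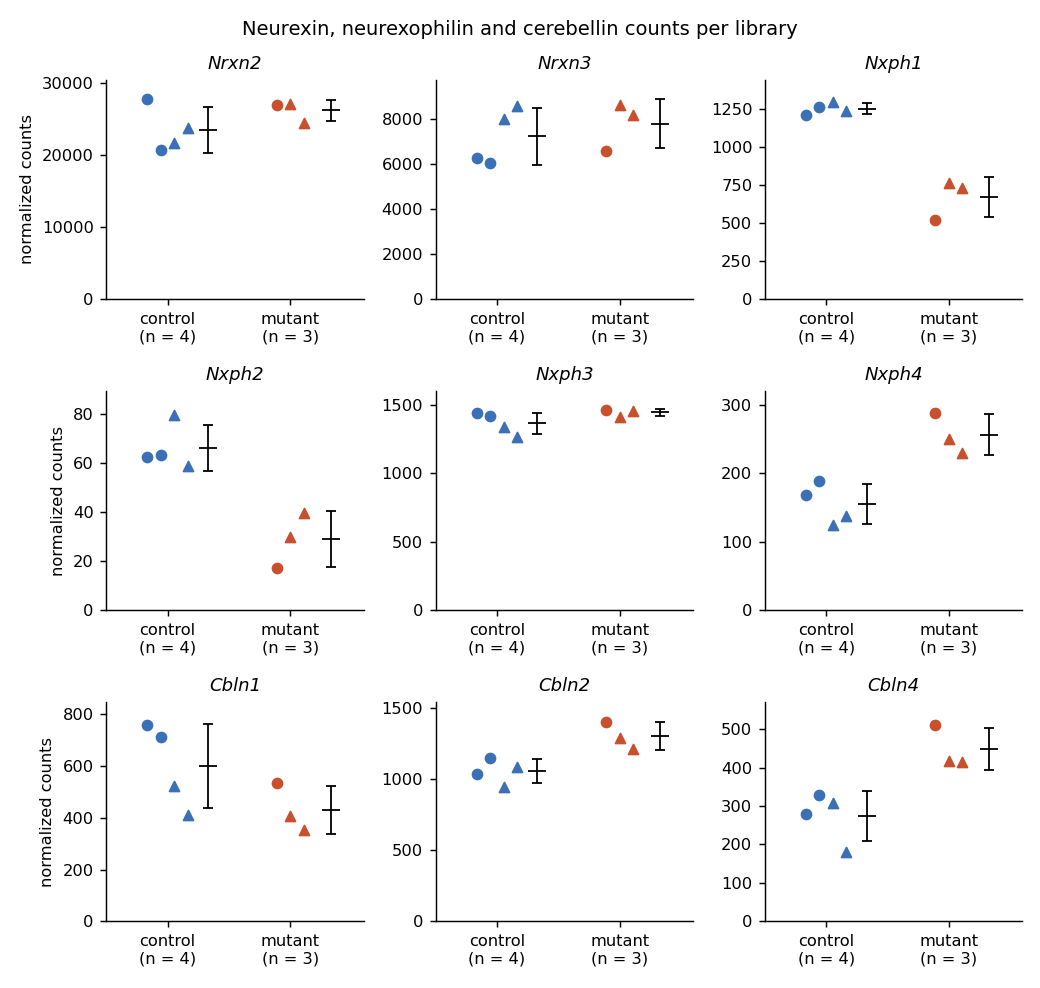
Normalized counts (vertical axes, each from 0) of the 9 genes in each library. Blue points are the 4 control and red points the 3 mutant libraries, circles are libraries 2, 3 and 5 and triangles libraries 10 to 13, and black bars are the mean ± SD. The genotypes do not overlap for *Nxph1*, *Nxph2*, *Nxph4*, *Cbln2* and *Cbln4*.

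*Nxph1* (chromosome 6, 8948431 to 9249032 on GRCm38, plus strand) gave 1211, 1263, 1295 and 1238 normalized counts in controls. Mutants gave 518, 762 and 728. The control libraries lay close together, and library 5 was the lowest of the mutants. The mean fell from 1252 ± 36 (SD, n = 4 pools) to 669 ± 132 (SD, n = 3 pools), which left 53.5% of the level in controls. On the log2 scale the change was -0.90 ± 0.13 (SE; edgeR adjusted p = 0.00752). Taken separately, libraries 2, 3 and 5 gave a difference of -1.25 and libraries 10 to 13 a difference of -0.76. *Nxph1* was called in all 16 alternative fits. None of its exons overlaps another gene, and none of its 36-base words occurs in another gene.

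Of 12 genes that mark interneurons of MGE origin, 8 were called lower and 2 higher (*Tac1* and *Crhbp*). *Lhx6*, the gene disrupted in these mutants, is among the 8, and it also enters the median and the sums of this list. The list's median log2 fold change was -0.61 (-0.013 over all tested genes), and its summed normalized counts were 26390 to 28602 in controls and 15448 to 17903 in mutants. *Sst* and *Pvalb*, the genes of somatostatin and parvalbumin, fell by 3.19 and 3.05 on the log2 scale. Of 8 markers shared by all GABAergic neurons, 1 was called lower and none higher, and the summed counts of that list overlapped between genotypes (35577 to 41726 in controls, 33347 to 42739 in mutants). The part of these lists in the result for *Nxph1* was not tested. In RNA of whole forebrain, fewer cells that express *Nxph1* and less *Nxph1* RNA in each cell cannot be told apart.

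*Nxph2* (chromosome 2, 23321246 to 23401973, plus strand), a relative of *Nxph1*, had the fewest reads of the 9 genes. Controls gave 62.5, 63.3, 79.6 and 58.9 normalized counts, and mutants 17.2, 30.02 and 39.8. All mutant libraries lay below all controls, and library 5 was again the lowest. Its log2 fold change, -1.18, was the largest in size of the 9 genes and had the largest standard error (0.29), and it did not pass the threshold (edgeR adjusted p = 0.0574). *Nxph2* passed in 4 of 16 alternative fits, with an adjusted p of 0.0105 in DESeq2 and 0.0483 in limma-voom. The edgeR adjusted p was 0.0168 with the run of numbers as a covariate and 0.0383 with 10 counts in all 7 libraries. Taken separately, libraries 2, 3 and 5 gave -1.75 and libraries 10 to 13 gave -0.95.

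*Nxph4* (chromosome 10, 127525473 to 127534559, minus strand), the neurexophilin with the longest protein, moved the other way. Controls gave 168, 189, 125 and 137 normalized counts, and mutants 288, 250.5 and 230.1. The lowest mutant library lay above the highest control library, at 189. The mean rose from 155 ± 29.1 (SD, n = 4 pools) to 256 ± 29.6 (SD, n = 3 pools). On the log2 scale the rise was 0.73 ± 0.17 (SE; edgeR adjusted p = 0.0478). The call lies close to the threshold and was lost with no filter on low counts (adjusted p = 0.0619) and in 6 of the 7 fits that left out 1 library, all but that without control library 3, with adjusted p-values up to 0.158 without mutant library 5. The direction was the same in every alternative fit (0.64 to 0.89), and within libraries 2, 3 and 5 and libraries 10 to 13 the differences were 0.69 and 0.87.

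*Nxph4* is known from the deepest cortical layer, layer 6b. Of 5 further genes of layer 6b and the subplate, *Tmem163* was called higher (0.43) and *Moxd1* lower (-1.58), and *Cplx3*, *Ctgf* and *Nr4a2* had log2 fold changes of 0.51, 0.86 and -0.53 without passing the threshold. The summed counts of the list were 4892 to 5344 in controls and 6110 to 6187 in mutants; its part in the result for *Nxph4* was not tested.

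*Nxph3* (chromosome 11, 95509845 to 95514570, minus strand), the most abundant neurexophilin per length, had between 1267 and 1439 normalized counts in controls and between 1415 and 1466 in mutants. These ranges overlapped. Its log2 difference of 0.084 came with a standard error of 0.073, the smallest of the 9 genes (edgeR adjusted p = 0.636).

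To compare genes with each other, CPM (normalized counts over library size) were divided by the length of the merged exons in kb. The 4 neurexophilins summed to 29.0 ± 1.40 CPM per kb over the 4 controls and to 27.9 ± 0.213 over the 3 mutants (mean ± SD), and the ranges overlapped. With the longest annotated transcript as the length, which shortens *Nxph1* from 4.753 to 2.815 kb and was applied to the sum after seeing the data, the sums were 32.2 to 35.4 in controls and 29.8 to 31.1 in mutants and did not overlap, so whether they overlap rests on the length used. Within that sum the shares of the members shifted. *Nxph1* made up 23.9% to 26.9% of it in control libraries and 11.1% to 16.1% in mutants (34.7% to 38.3% and 17.3% to 24.5% with the longest transcript). *Nxph4* made up 7.34% to 10.5% in controls and 13.7% to 17.5% in mutants. *Nxph3* held the largest share in every library, 62.3% to 64.4% in controls and 67.7% to 70.8% in mutants, and *Nxph2* the smallest, at most 3.04%. These shares restate the counts above on another scale and were not tested.

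**Figure D2:**
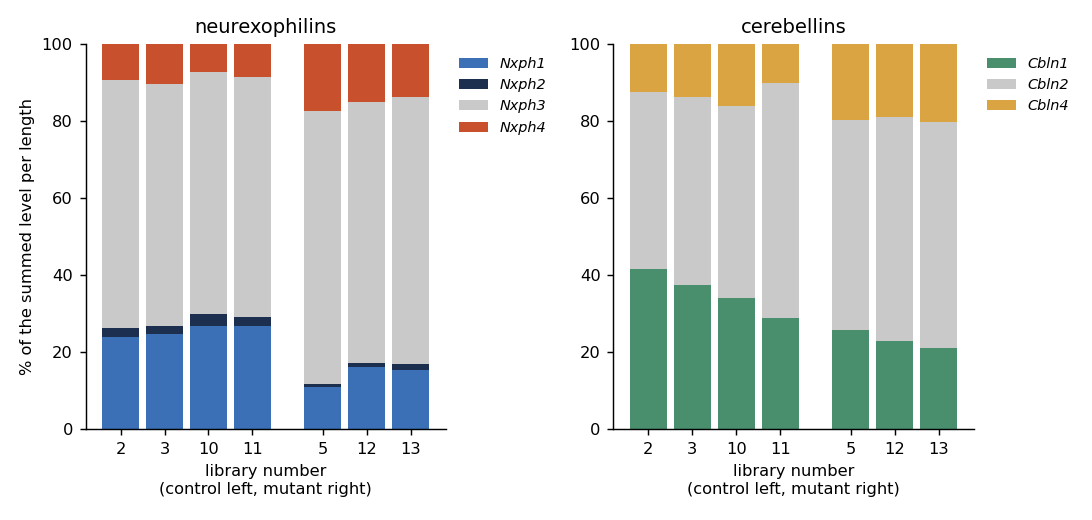
Share (vertical axes, percent) of each neurexophilin (left panel) and each cerebellin (right panel) in the summed level per exon length of its family, 1 stacked bar per library, with control libraries 2, 3, 10 and 11 to the left and mutant libraries 5, 12 and 13 to the right. *Nxph1* takes 11.1% to 16.1% of the neurexophilin level in mutants against 23.9% to 26.9% in controls, and *Nxph4* takes 13.7% to 17.5% against 7.34% to 10.5%.

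Among the cerebellins, *Cbln4*, which somatostatin interneurons and other neurons are known to make, gave 280, 327, 308 and 180 normalized counts in controls. Mutants gave 512, 417 and 416. All mutant libraries lay above all controls, of which library 11 was the lowest. At 0.71 ± 0.20 (SE) the log2 difference did not pass the threshold (edgeR adjusted p = 0.0873). It passed in 3 of 16 alternative fits. These were DESeq2 (adjusted p = 0.0150), edgeR with the run of numbers as a covariate (0.0225) and edgeR on libraries 10 to 13 (0.0467). Within libraries 2, 3 and 5 and libraries 10 to 13 the differences were 0.75 and 0.82. The 12 MGE markers, *Sst* among them, summed to 26390 to 28602 normalized counts in controls and 15448 to 17903 in mutants. The 10 markers of interneurons from the caudal ganglionic eminence summed to 15167 to 18907 in controls and 22660 to 26029 in mutants. Among these 10, *Cnr1* averaged 6257 in controls and 11398 in mutants, and 3 had negative log2 fold changes. The 8 striatal markers summed to 13659 to 20309 in controls and 19407 to 27577 in mutants. Among these 8, *Penk*, which was called higher, averaged 3067 and 7027, and 1 had a negative log2 fold change. The part of these lists in the values of *Cbln4* was not tested. *Cbln4* lies on the minus strand of chromosome 2, from 172036233 to 172043466.

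*Cbln2* (plus strand of chromosome 18, from 86711110 to 86718283), which binds neurexins at synapses in several forebrain regions, was the most abundant cerebellin. Controls gave 1037, 1145, 945 and 1081 counts, and mutants 1402, 1286 and 1209. The genotypes did not overlap, by a margin of 1145 to 1209. The log2 difference was 0.30 ± 0.092 (SE; edgeR adjusted p = 0.112). Of the 16 alternative fits it passed the threshold in 1, which took the run of numbers as a covariate (edgeR adjusted p = 0.0279).

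*Cbln1* (chromosome 8, 87468854 to 87472592, minus strand), best known from cerebellar granule cells, where it joins neurexins to a delta receptor, pointed the other way. Controls gave 758, 713, 522 and 412 counts, and mutants 535, 406 and 352. The genotypes overlapped, while libraries 2, 3 and 5 all lay above libraries 10 to 13. The log2 difference of -0.48 ± 0.23 (SE) did not pass the threshold (edgeR adjusted p = 0.329), and libraries 2, 3 and 5 taken separately gave -0.46, with -0.29 from libraries 10 to 13. The 9 cerebellar and hindbrain markers summed to 680 to 916 normalized counts in controls and to 571 to 669 in mutants, without overlap. Most of that sum was *Car8* (528 to 814 counts), and *Pcp2*, a Purkinje cell gene, had 7.68 to 53.2 and *En2* 15.3 to 28.1. *En1* reached 35.5 in control library 10, and *Gabra6*, a defining gene of cerebellar granule cells, had 12.1 in control library 3 and was at 0 in the other libraries. Of the 9 markers 3 were tested and none was called by edgeR. Of 10 thalamic and hypothalamic markers, 6 were tested and none was called, and their summed counts were 2009 to 2673 in controls and 2010 to 2277 in mutants. The part of either tissue in the result was not tested. Of the summed cerebellin level per length, *Cbln1* made up 28.8% to 41.7% in controls and 21.2% to 25.7% in mutants, and *Cbln4* 10.1% to 16.2% and 18.9% to 20.1%, again with no test.

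The neurexins themselves did not pass the threshold. *Nrxn2* (chromosome 19, 6418731 to 6544169, plus strand) gave 27844, 20677, 21689 and 23720 normalized counts in controls, and 27016, 27099 and 24513 in mutants. The highest library was a control, and the log2 difference was 0.16 ± 0.11 (SE; edgeR adjusted p = 0.542). *Nrxn3* (chromosome 12, 88722876 to 90334935, plus strand) gave 6242, 6036, 7996 and 8561 counts in controls, and 6559, 8601 and 8181 in mutants. Its values sorted by library number and not by genotype, since libraries 2, 3 and 5 all lay below libraries 10 to 13; *Nrxn3* and *Cbln1* were the 2 of 9 genes split in this way, against 23.0% of all tested genes. For *Nrxn3* the log2 difference between genotypes was 0.11 ± 0.15 (SE; edgeR adjusted p = 0.787). Libraries 2, 3 and 5 taken separately gave 0.096, and libraries 10 to 13 gave 0.020.

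The annotation gives 15 transcripts for *Nrxn2* and 13 for *Nrxn3*, and counts per gene add all of them, so alpha and beta forms were not resolved. Exons of *Slc22a12* and of 2 predicted genes, all on the other strand, overlap 7.28% of the exon length of *Nrxn2*, and 3.48% of that of *Nrxn3* is overlapped by 1 gene on the other strand. Whether counting used the strand is not given in the sources used here, so those reads cannot be told apart. The other 7 genes overlap no exon of another gene.

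**Figure D3:**
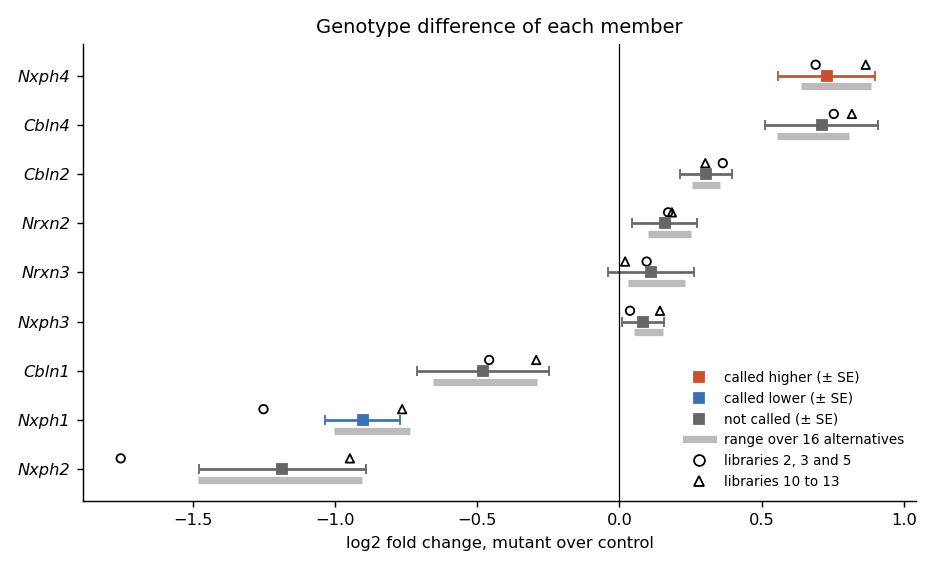
Log2 fold change of mutant over control (horizontal axis) for each of the 9 genes. Squares are edgeR's estimate ± standard error, red for called higher, blue for called lower and gray for not called, gray bars span the 16 alternative fits, and open circles and triangles are the differences within libraries 2, 3 and 5 and within libraries 10 to 13. No gray bar over the alternative fits crosses 0, and *Nxph1* and *Nxph4* are the called genes.

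Per exon length, *Nrxn2* was the most abundant of the 9 genes at 50.1 ± 5.70 CPM per kb (SD over 7 libraries), and no other gene reached its range. *Nxph3* (18.7 ± 0.968) and *Nrxn3* (16.6 ± 2.51) followed with overlapping ranges. *Cbln2* stood at 11.2 ± 1.51, and its range overlapped that of *Nrxn3*. *Cbln1* (6.35 ± 1.88) and *Nxph1* (5.92 ± 1.90) overlapped, as did *Nxph1* and *Cbln4* (3.37 ± 1.05), and *Cbln4* and *Nxph4* (3.32 ± 1.01). These means pool both genotypes. In controls alone *Nxph1* averaged 7.39 and *Cbln1* 7.23, above *Cbln4* (2.65) and *Nxph4* (2.59). In mutants alone *Nxph1* averaged 3.95, below *Cbln1* (5.18), *Cbln4* (4.33) and *Nxph4* (4.29). *Nxph2* was lowest at 0.546 ± 0.238. With the longest annotated transcript as the length, *Nrxn2* stood at 104 and *Nrxn3*, at 26.4, moved ahead of *Nxph3*, and *Nxph1*, at 9.99, moved ahead of *Cbln1*.

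**Figure D4:**
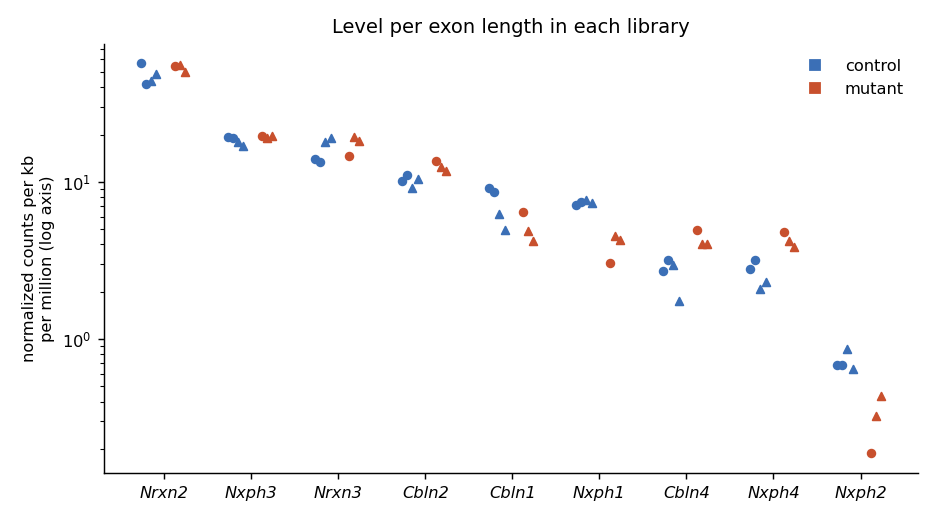
Level of each gene in each library as CPM per kb of merged exons (vertical axis, log scale), ordered by the mean over 7 libraries. Blue is control and red mutant, circles are libraries 2, 3 and 5 and triangles libraries 10 to 13. The levels run from 0.188 (*Nxph2*, library 5) to 56.6 (*Nrxn2*, library 2).

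Partners of neurexins were examined as lists. Of 17 membrane proteins that bind neurexins or cerebellins across the cleft, 2 were called lower and none higher. Their median log2 fold change was -0.097. For all tested genes the median was -0.013, and 2.97% were called higher and 1.87% lower. *Lrrtm4*, a leucine-rich repeat protein of the postsynaptic membrane, averaged 1424 ± 110 normalized counts over the 4 controls and 993 ± 30.2 over the 3 mutants (SD). It fell by 0.52 ± 0.085 on the log2 scale (SE; edgeR adjusted p = 0.0112). Its call was lost without any of the 3 mutant libraries, at up to 0.0612 without library 13. *Grid1*, which encodes the delta receptor GluD1 that cerebellins bind, averaged 2253 ± 175 in controls and 1771 ± 40.2 in mutants, and fell by 0.35 ± 0.082 (edgeR adjusted p = 0.0492). That call held in 7 of 16 alternative fits and was lost when any library other than control library 3 was left out, with adjusted p up to 0.197 without mutant library 13. The neuroligin genes *Nlgn1*, *Nlgn2* and *Nlgn3* had 0.083, 0.039 and -0.16, none past the threshold.

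Of 8 other secreted ligands and relatives of the cerebellins, 7 were tested and *Fam19a4*, a small chemokine-like protein, was called higher. It had 14.1 to 23.0 normalized counts in controls and 56.9 to 67.1 in mutants, and rose by 1.76 ± 0.24 on the log2 scale (SE; edgeR adjusted p = 0.00541), called in all 16 alternative fits. The median of the 7 was 0.46, and *C1ql3* and *C1ql1*, relatives of the cerebellins, had 0.58 and 0.46 without passing the threshold. *Fam19a1* and *Fam19a2*, relatives of *Fam19a4*, had -0.47 and -0.32 (edgeR adjusted p = 0.0509 and 0.119), with all mutant libraries below all controls. Of 9 partners inside the terminal, *Mpp3*, a membrane scaffold, rose by 0.50 (edgeR adjusted p = 0.00607) and *Lin7b*, an adaptor that joins the scaffold protein Cask, fell by 0.48 on the log2 scale (edgeR adjusted p = 0.0334). The call of *Lin7b* was lost without control library 2 or 10 and without any of the 3 mutant libraries, with adjusted p up to 0.159 without mutant library 13. *Cask* itself had 0.10, and the median of the 9 was -0.032. None of the 4 neuroligin blockers and inhibitory scaffold genes was called by edgeR, while 2 of them (*Mdga2* and *Gphn*) had a p-value under 0.05 before adjustment.

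**Figure D5:**
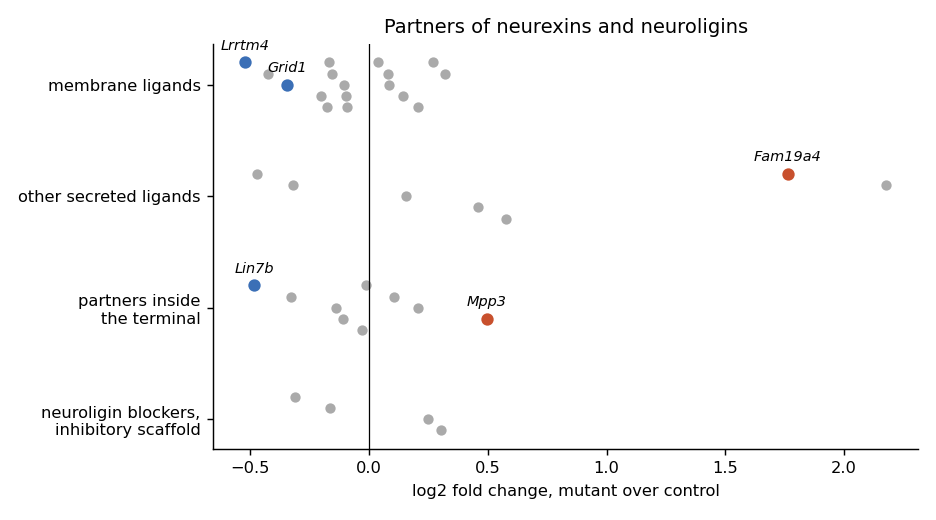
Log2 fold change of mutant over control (horizontal axis) of the tested genes in 4 lists of neurexin and neuroligin partners, 1 point per gene with vertical spread only for legibility. Red is called higher, blue called lower and gray not called; *Fam19a4* at 1.76 and *Mpp3* at 0.50 are called higher, and *Lrrtm4*, *Grid1* and *Lin7b* are called lower. The gray point at 2.18 is *Fam19a3*, with 6.85 counts on average in controls.

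The genes most like the called members in pattern were taken as those with the smallest root mean square difference of centred log2 CPM over the 7 libraries, among 15761 genes with a mean of at least 1 CPM. For *Nxph1* these were *Lypd6* (0.089), *Cdh7* (0.10) and *Smim17* (0.11), with log2 fold changes of -0.91, -1.04 and -0.77. For *Nxph4* they were *Barx2* (0.065), *Pmaip1* (0.068) and *Ache* (0.088), with log2 fold changes of 0.69, 0.68 and 0.84. The choice by pattern fixes these directions, so they are a description of 7 libraries.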

How the data were processed

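Total RNA of forebrain was sequenced as 36 bp single-end reads. The authors trimmed reads with cutadapt 1.9.1, aligned them to the Ensembl release 84 transcriptome (GRCm38) with Bowtie2 2.2.9 and deposited the expected counts of RSEM 1.2.31 per gene, without normalization. From their deposited DESeq2 table, which also holds fold changes and p-values, only gene symbols were used; gene models came from the deposited exon annotation.

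Expected counts were rounded. A gene was kept if 3 or more libraries held 10 or more counts of it (19684 of 47729), and kept genes were scaled by TMM and tested between genotypes with edgeR 4.0.16 (quasi-likelihood F-test, no covariate, Benjamini-Hochberg, threshold 0.05; R 4.3.3). The standard error is the absolute log2 fold change over the root of F. Alternatives used DESeq2 1.42.0, limma-voom 3.58.1, other scalings and filters, unrounded counts, a covariate for the run of numbers, libraries 10 to 13 only, and each library left out. Differences within a run are of mean log2 CPM (prior count 2). The depth of 32556304 to 38069151 counts limits low genes. Every per-sample column was used. Coding sequences came from GENCODE M21 (GRCm38), were aligned with MAFFT 7.526 (nucleotides, for the stretch shown) and Biopython 1.88 (proteins, BLOSUM62), and 36-base words were compared over all its transcripts. Members, marker and partner lists, the rule for genes alike in pattern and the alternatives were chosen with earlier results of these data known. Named genes are all members, list genes with their values, *Lhx6*, and for each called member the 3 genes nearest in pattern. Some genes of these lists are not reported by name here.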

Additional observations from a re-analysis of the deposited data

How the results depend on the processing

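Each fit of edgeR (quasi-likelihood, Benjamini-Hochberg) was repeated under 16 alternatives, and no gene among the 9 changed direction in any. *Nxph1* was called in 16 of 16, *Nxph4* in 9, *Nxph2* in 4, *Cbln4* in 3 and *Cbln2* in 1, and *Nrxn2*, *Nrxn3*, *Nxph3* and *Cbln1* in none (0). Against 1 higher and 1 lower under the settings used above, DESeq2 called 2 of the 9 higher and 2 lower, and limma-voom and a filter of 10 counts in all 7 libraries called 2 lower. No filter called 0 higher. A covariate for the run of numbers called 3 higher and 2 lower, and libraries 10 to 13 alone called 2 higher. Leaving out 1 library gave 0 to 1 higher. Over all genes, 585 were higher and 369 lower under the settings used above. DESeq2 called 968 and 722, the covariate 1213 and 992, and libraries 10 to 13 alone 1084 and 838. The counts were 608 and 355 with limma-voom, 612 and 413 with 10 counts in all 7 libraries, and 533 and 296 with no filter. With 1 library left out the counts ran from 223 (without mutant library 13) to 589 higher and from 79 (without the same library) to 382 lower. Why these counts differ was not tested, except that leaving out a library leaves fewer samples. Without mutant library 5, the lowest of the mutants for *Nxph1* and *Nxph2*, their log2 fold changes were -0.74 and -0.91. No paired analysis was possible because the columns carry library numbers and not the replicate numbers of the labels.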
